A study of Cricetulus griseus with 24 samples.

Results

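Nucleotide excision repair genes were followed in Chinese hamster ovary (CHO) cells, starting from Xpc. The set was named by symbol as Xpc, Xpa, Ercc1, Ercc2, Ercc3, Ercc4, Ercc5, Ercc6, Ddb2 and Rad23b. It was chosen with earlier results of these data known. Of these 10 symbols, 9 have a row among the 28037 genes of the deposited count table, and Ercc5 has none under that name.

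RNA was sequenced from 3 lines, each in exponential and in stationary phase. A0 is an antibody-producing CHO DG44 line that had received 2 plasmids together, 1 carrying the IgG heavy chain with an amplifiable marker and 1 carrying the light chain with a neomycin resistance gene. A1 is the amplified progeny of A0, obtained by selection in rising methotrexate, an antifolate drug. A0 and A1 therefore share the DG44 host and both plasmids. CHO-S is a separate CHO line that makes no antibody and was the negative control. Its sample titles also carry the tag NDST, whose meaning the sources used here do not give, so whatever the tag stands for, host, transgenes and selection history cannot be told apart in any comparison with it. Each line stands for 1 clone or stock, and the cultures are repeats of that line. There were 4 cultures of A0 and 3 each of A1 and CHO-S in each phase. Every A0 exponential culture was sequenced as a pair of libraries, which were summed here, so the 24 libraries gave 20 cultures.

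Nucleotide excision repair removes bulky lesions, such as those left by ultraviolet light, from DNA. The lesion is found either anywhere in the genome by XPC with RAD23B, helped by DDB2, or where RNA polymerase stalls, by a route that needs ERCC6. Both routes then use the same machinery. The TFIIH helicases ERCC2 and ERCC3 open the helix, XPA and the single-strand binding protein RPA hold the opened DNA, the nucleases ERCC1-ERCC4 and ERCC5 cut on either side of the lesion, and replication factors fill the gap. CHO cells have long served this field, since repair-deficient CHO mutants were used to isolate several of the ERCC genes.

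Levels are given as CPM, the usual depth-scaled read counts, that is, reads of a gene scaled to the library total in genes by TMM over the 20 cultures. Libraries held between 1038026 and 14652646 reads in genes. The lowest total belonged to CHO-S stationary culture 1, where 32.8% of reads lay outside genes. Its log2 levels over 10588 expressed genes correlated at r = 0.88 with the other CHO-S stationary cultures and at 0.676 to 0.717 with the A0 and A1 groups, while the other 2 CHO-S stationary cultures gave 0.961 and 0.963 with their own group. Where leaving that culture out changed a printed call of the 9 genes or a printed count of a list, both values are given. In bulk RNA, a gene read in fewer cells and less of its RNA per cell cannot be told apart.

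A call below means that edgeR's quasi-likelihood test gave an adjusted p under 0.05, with the Benjamini-Hochberg method applied over all genes tested. In exponential phase, 0 of the 9 genes differed between A1 and A0, where 25.9% of all genes did. At an unadjusted p under 0.05 there was 1, Xpc, and DESeq2 also called 1. In stationary phase 2 of 9 were higher in A1, Ercc2 and Ercc3, against 33.7% of all genes called and 16% called higher. Of the 9 log2 values there, 4 were positive and 5 negative. Among the negative ones, Xpa, Ercc1 and Rad23b were each called in 1 of 15 other settings. The difference between the lines changed with phase for 0 of 9 genes (8.94% of all genes). In that test 1 gene, Ercc2, had an unadjusted p under 0.05, and DESeq2 called 0. Against CHO-S in exponential phase, 6 of 9 were called in A0 (background 49.5%) and 6 of 9 in A1 (background 57.2%), 3 higher and 3 lower each time. Of all genes, 27.6% were higher and 21.9% lower in A0, and 30% higher and 27.1% lower in A1. In stationary phase these counts were 4 in A0 (background 40%) and 2 in A1 (background 34.8%), and without CHO-S culture 1 they were 7 (background 51.8%) and 5 (background 57.4%). Within a line, stationary and exponential phase differed for 3 of 9 genes in A0 (background 37.7%), 3 in A1 (background 33.4%) and 1 in CHO-S (background 13.3%), the last becoming 6 without culture 1 (background 47.7%). With 9 genes, none of these shares is read as particular to them. The backgrounds include weakly counted genes and were higher with edgeR's stricter filter. Between A1 and A0 they then were 36.7% in exponential and 47.2% in stationary phase. Against CHO-S in exponential phase they were 65.2% in A0 and 74.2% in A1. Between phases they were 53.3% in A0, 47.2% in A1 and 20.5% in CHO-S. Groups without overlap were common, so such remarks below are descriptions. Between A1 and A0, 6868 of 19946 genes did not overlap in exponential and 7707 of 19293 in stationary phase. Against CHO-S in exponential phase these were 10732 of 19966 in A0 and 11439 of 18488 in A1. Between phases they were 7247 of 20267 in A0, 7992 of 18548 in A1 and 6313 of 17367 in CHO-S.

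**Figure D1:**
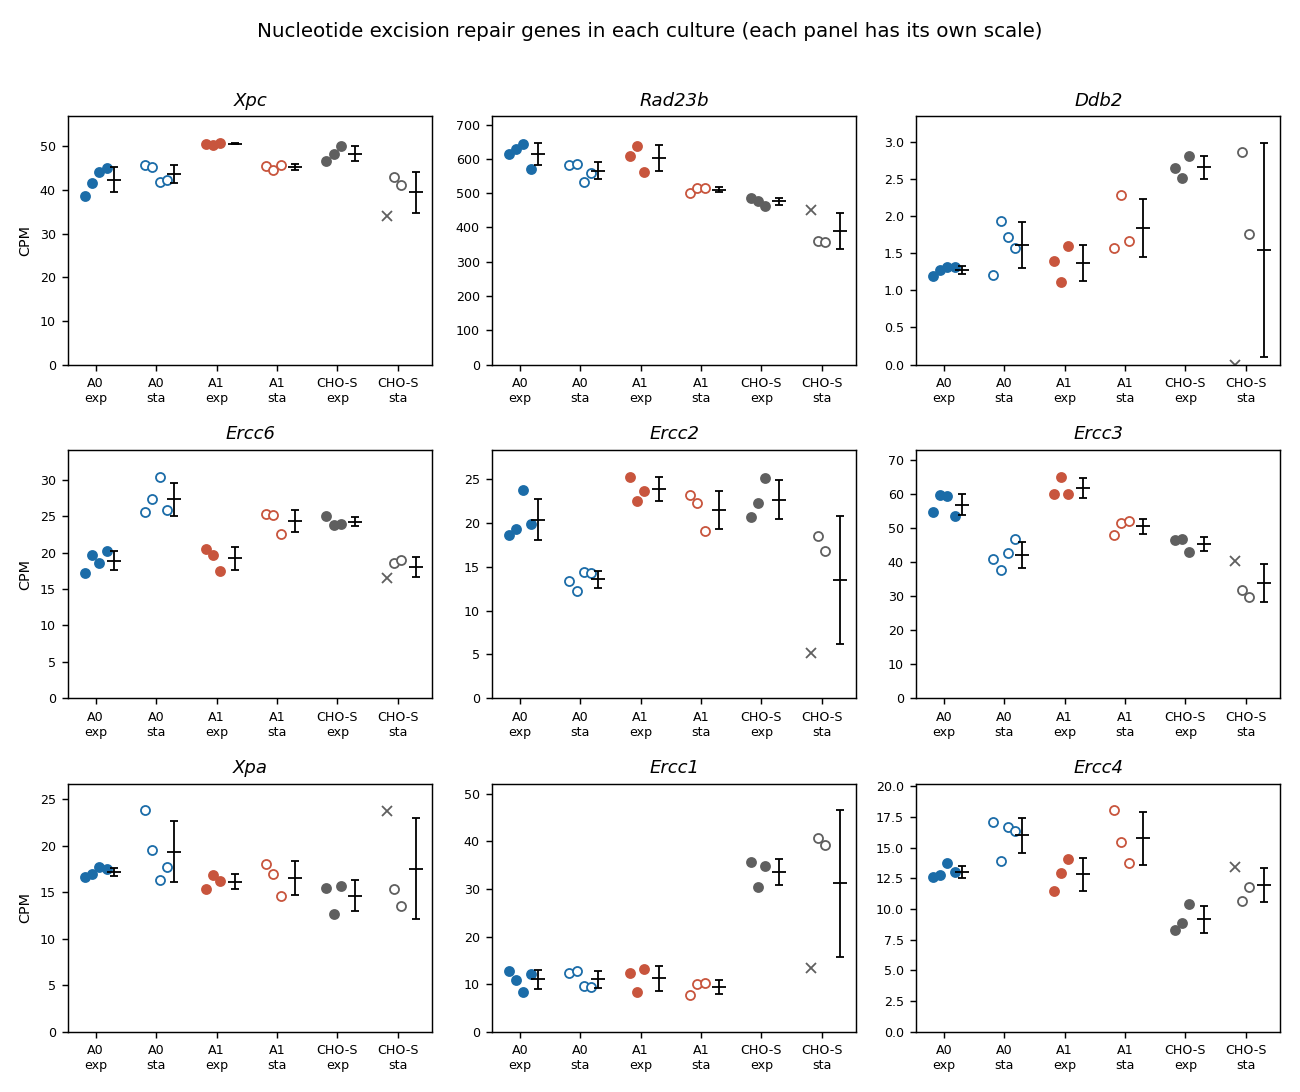
CPM of the 9 genes in each culture (points; filled, exponential; open, stationary) with the group mean and SD beside them (black), for A0, A1 and CHO-S; the cross marks CHO-S stationary culture 1. Xpc stayed between 34.1 and 50.7 CPM in all 20 cultures, while Ercc1 stood at 30.4 to 35.6 CPM in exponential CHO-S and at 8.28 to 13.2 CPM in exponential A0 and A1.

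Xpc (gene ID 100764712) encodes the protein that senses the distorted helix. It varied least of the 9 genes, with a 1.28-fold range between its highest and lowest group means. In exponential phase it was at 38.6, 41.6, 44.0 and 44.9 CPM in A0, at 50.6, 50.4 and 50.7 CPM in A1, and at 46.7, 48.1 and 49.97 CPM in CHO-S. All A1 cultures lay above all A0 cultures. The difference was 1.19-fold (log2 0.26 ± 0.091 SE) and narrowly missed the threshold, with an edgeR adjusted p of 0.0502. In stationary phase the A0 values were 45.7, 45.1, 41.7 and 42.2 CPM and the A1 values 45.4, 44.5 and 45.8 CPM. These overlapped, and the difference was log2 0.04 ± 0.080 (adjusted p = 0.758).

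The exponential difference in Xpc moved with the A0 libraries used. The first A0 libraries of cultures 1 to 4 held Xpc at 46.9, 45.9, 43.2 and 46.3 CPM, here scaled per library. The second libraries of cultures 1 and 2, labelled RLT, held it at 31.0 and 36.0 CPM, and those of cultures 3 and 4, labelled Duplicate, at 43.6 and 42.9 CPM. The 2 RLT libraries were thus the lowest of the 8, with log2 ratios of -0.60 and -0.35 to the first library of the same culture. Among 10557 expressed genes, 2.59% and 3.98% had a ratio as low in these pairs. Without the RLT libraries A1 exceeded A0 by log2 0.15 (adjusted p = 0.173), and with the first libraries alone by 0.15 (adjusted p = 0.195). Over 17 settings the value ran from 0.15 to 0.33 and passed the threshold in 8. What the RLT label stands for is not given, and its part in the result was not tested.

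**Figure D2:**
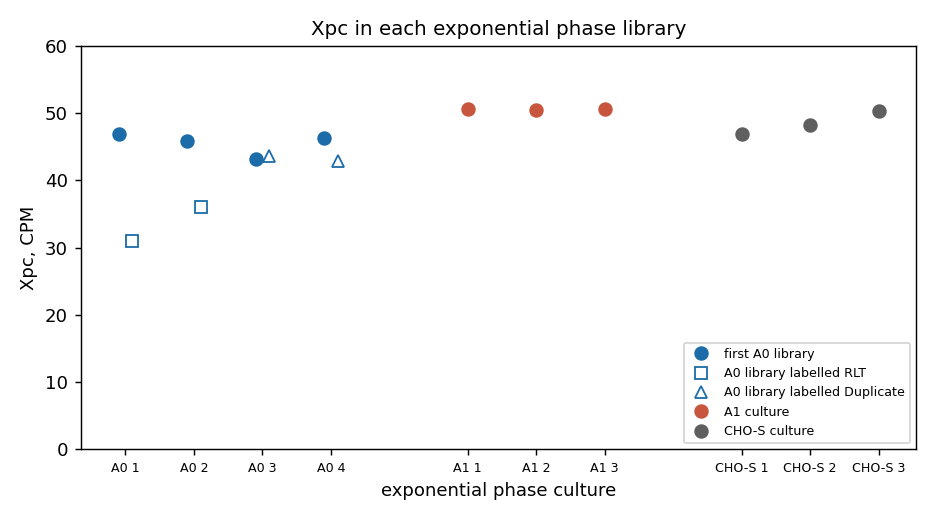
Xpc in CPM, scaled per library, in each exponential phase library of A0 (circles, first library; squares, labelled RLT; triangles, labelled Duplicate) and in each A1 and CHO-S culture. The 2 RLT libraries lie at 31.0 and 36.0 CPM and all other A0 libraries between 42.9 and 46.9 CPM, below the A1 cultures.

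Neither producer line was called against CHO-S in Xpc. In exponential phase A0 stood at log2 -0.18 ± 0.089 (adjusted p = 0.111) and A1 at 0.06 ± 0.060 (adjusted p = 0.402). Both comparisons use the same CHO-S cultures. In stationary phase CHO-S held 34.1, 42.9 and 41.2 CPM, with the lowest in culture 1. A0 then stood at log2 0.10 ± 0.142 (adjusted p = 0.593) and A1 at 0.15 ± 0.146 (adjusted p = 0.457). Between phases Xpc gave log2 0.03 in A0, -0.14 in A1 and -0.26 in CHO-S, with adjusted p of 0.812, 0.131 and 0.246. Without CHO-S culture 1 the last became -0.19 ± 0.072 (adjusted p = 0.0239), a fall past the threshold.

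Dym and Rexo1 were among the 3 genes whose profile over the 20 cultures was nearest to that of Xpc, out of 10587 genes of at least 5 CPM on average. Their root mean square differences from Xpc in centred log2 CPM were 0.102 and 0.104, where the median gene had 0.422. Of the repair genes, Rad23b ranked 1035 and Ercc6 1044, both at 0.246, and Ercc1 ranked lowest of those measured at 9417. A gene that varies little lies near every other gene that varies little, so these ranks are a description.

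Rad23b (gene ID 100763817), the partner that stabilises XPC, was higher in both producer lines than in CHO-S. In exponential phase it stood at 613, 630, 644 and 570.3 CPM in A0, at 608, 636 and 562 CPM in A1, and at 485, 478 and 463 CPM in CHO-S. Every A0 and A1 culture was above every CHO-S culture. A0 was 1.30-fold higher (log2 0.38 ± 0.082, adjusted p = 0.00127) and A1 1.26-fold higher (log2 0.33 ± 0.045, adjusted p = 7.6e-07). The median of all genes was itself 0.14 above 0 in the A0 comparison, and 0.042 above 0 with the stricter filter. In stationary phase A0 remained higher at log2 0.53 ± 0.144 (adjusted p = 0.0143), and A1 stood at 0.37 ± 0.149 (adjusted p = 0.0867). Without CHO-S culture 1, where Rad23b was at 450 CPM against 359 and 357 in the other 2, the values were 0.67 (adjusted p = 2.04e-05) and 0.48 (adjusted p = 1.88e-10).

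With phase, Rad23b fell in A1 to 501, 515 and 514 CPM, log2 -0.22 ± 0.054 (adjusted p = 0.00154). All A1 stationary cultures lay below all A1 exponential ones. In A0 the values overlapped, at 583, 586, 533 and 559 CPM in stationary phase, with log2 -0.13 ± 0.089 (adjusted p = 0.273). In CHO-S the change was -0.29 ± 0.137 (adjusted p = 0.212) with all cultures and -0.41 ± 0.043 (adjusted p = 4.18e-14) without culture 1. All stationary A1 cultures also lay below all stationary A0 cultures, at log2 -0.16 ± 0.064 (adjusted p = 0.0717).

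Ddb2 (gene ID 100756705) encodes the ultraviolet damage sensor that hands lesions to XPC, and in people it is a target of p53. Its RNA was low in every line. In exponential phase it was at 1.19, 1.28, 1.31 and 1.32 CPM in A0, at 1.39, 1.11 and 1.60 CPM in A1 and at 2.64, 2.51 and 2.81 CPM in CHO-S, from 126, 51 and 104 reads in all. CHO-S was above both producer lines with no overlap. A0 had 0.485 times the CHO-S level (log2 -1.05 ± 0.207, adjusted p = 0.000668) and A1 had 0.518 times (log2 -0.95 ± 0.249, adjusted p = 0.00208).

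In stationary phase Ddb2 ranged from 1.21 to 1.93 CPM in A0 and from 1.56 to 2.28 CPM in A1. CHO-S cultures 2 and 3 gave 2.86 and 1.76 CPM, and culture 1 gave 0 reads, which at its depth allows up to 2.89 CPM. The groups overlapped, and no stationary or phase comparison of Ddb2 passed the test, with adjusted p from 0.255 to 0.735. Counting error is large here, and a difference of the exponential size could not be read in stationary CHO-S.

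Ercc6 (gene ID 100770299), which encodes the CSB protein of transcription-coupled repair, rose with phase in the producer lines and fell in CHO-S. In A0 it was at 17.2, 19.7, 18.6 and 20.2 CPM in exponential phase and at 25.6, 27.4, 30.5 and 25.9 CPM in stationary phase. In A1 it went from 20.5, 19.7 and 17.5 CPM to 25.3, 25.2 and 22.6 CPM. In CHO-S it went the other way, from 25, 23.8 and 24 CPM to 16.5, 18.6 and 18.97 CPM. The phases did not overlap in any of the 3 lines.

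The rise of Ercc6 was 1.43-fold in A0 (log2 0.52 ± 0.106, adjusted p = 0.000976) and 1.28-fold in A1 (log2 0.36 ± 0.1, adjusted p = 0.00556). The fall in CHO-S was log2 -0.39 ± 0.099 (adjusted p = 0.0417), and without culture 1 it was -0.37 ± 0.097 (adjusted p = 0.000763). The CHO-S call was kept in 4 of 12 settings, all with a negative value between -0.43 and -0.35. An interaction test, added after these values were seen, gave a difference between the A0 and CHO-S phase changes of log2 0.89 ± 0.172 (adjusted p = 0.0019, 10.3% of all genes called). The same test for A1 and CHO-S gave 0.74 ± 0.138 (adjusted p = 0.00511, 7.6% of all genes called). Without CHO-S culture 1 the differences were 0.93 (adjusted p = 0.000182) and 0.71 (adjusted p = 7.04e-05), with 17.2% and 25.4% of all genes called. Both tests use the same CHO-S cultures. Between A0 and A1 the difference was not called, with an interaction of -0.20 ± 0.150 (adjusted p = 0.477).

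The order of the lines in Ercc6 depended on phase. In exponential phase A0 and A1 lay below CHO-S, by log2 -0.35 ± 0.099 (adjusted p = 0.00894) and -0.34 ± 0.086 (adjusted p = 0.00145). In stationary phase A0 lay above CHO-S by 0.56 ± 0.145 (adjusted p = 0.0114), and A1 stood at 0.38 ± 0.134 (adjusted p = 0.0558), or at 0.35 (adjusted p = 0.00894) without culture 1. All stationary A1 cultures lay below all stationary A0 cultures, at log2 -0.18 ± 0.102 (adjusted p = 0.2). In RefSeq the Ercc6 gene overlaps Adam22, whose RNA was more abundant, and the strand setting used in counting is not given, so reads of the pair may not be fully separated. Adam22 gave phase changes of log2 0.07 in A0 (adjusted p = 0.570) and 0.63 in A1 (adjusted p = 8.1e-10). In CHO-S it gave 1.08 with culture 1 included (adjusted p = 0.00795). It thus rose in A1, as Ercc6 did, and rose in CHO-S, where Ercc6 fell. The part of Adam22 reads in the Ercc6 values was not tested.

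Ercc2 (gene ID 100689272), the XPD helicase of TFIIH, fell in stationary A0. It was at 18.6, 19.3, 23.8 and 19.9 CPM in exponential A0 and at 13.4, 12.3, 14.3 and 14.3 CPM in stationary A0, with no overlap (log2 -0.60 ± 0.12, adjusted p = 0.000824). In A1 it was at 25.3, 22.5 and 23.6 CPM in exponential phase and 23.2, 22.3 and 19.1 CPM in stationary phase. Those values overlapped (log2 -0.14 ± 0.0998, adjusted p = 0.314). In stationary phase all A1 cultures lay above all A0 cultures, by 1.56-fold (log2 0.64 ± 0.114, adjusted p = 0.000534). This call held in all 15 settings, between 0.57 and 0.72. In exponential phase the difference was 0.22 ± 0.114 (adjusted p = 0.170). The test of whether the difference between A1 and A0 changed with phase gave log2 0.42 ± 0.161, with an unadjusted p of 0.0156 and an adjusted p of 0.112.

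In CHO-S, Ercc2 was at 20.6, 22.2 and 25.1 CPM in exponential phase and at 5.16, 18.5 and 16.8 CPM in stationary phase, with the low value in culture 1. The phase change was -0.46 ± 0.214 (adjusted p = 0.197), and without that culture -0.34 ± 0.102 (adjusted p = 0.00331). Neither A0 nor A1 was called against CHO-S in exponential phase, with adjusted p of 0.337 and 0.535. In stationary phase A0 stood at log2 -0.23 ± 0.236 (adjusted p = 0.471), or -0.37 ± 0.129 (adjusted p = 0.0317) without culture 1.

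Ercc3 (gene ID 100689367), the XPB translocase of TFIIH, was lower in stationary phase in A0 and A1. In A0 it went from 54.6, 59.7, 59.4 and 53.7 CPM to 40.9, 37.7, 42.6 and 46.9 CPM (log2 -0.45 ± 0.098, adjusted p = 0.00166). In A1 it went from 59.9, 65.1 and 60 CPM to 48.1, 51.4 and 51.9 CPM (log2 -0.26 ± 0.070, adjusted p = 0.0033). In CHO-S it went from 46.4, 46.7 and 43.0 CPM to 40.3, 31.7 and 29.7 CPM. The phases did not overlap in any line, but the CHO-S change was called only without culture 1 (-0.47 ± 0.149, adjusted p = 0.0796, against -0.55 ± 0.078, adjusted p = 2.95e-09).

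Between lines, Ercc3 exceeded its exponential CHO-S level in A0 and A1, by log2 0.34 ± 0.088 (adjusted p = 0.00506) and 0.44 ± 0.062 (adjusted p = 1.65e-06). In stationary phase A1 was higher than CHO-S by 0.60 ± 0.165 (adjusted p = 0.0224), and A0 stood at 0.34 ± 0.158 (adjusted p = 0.112). Without CHO-S culture 1 both were called, at 0.69 (adjusted p = 6.88e-10) and 0.47 (adjusted p = 0.00424). A1 exceeded A0 in stationary phase by 0.26 ± 0.089 (adjusted p = 0.0386), a call lost in 8 of 15 settings with adjusted p up to 0.143. In exponential phase all A1 cultures also lay above all A0 cultures, at log2 0.12 ± 0.089 (adjusted p = 0.381). The gap was narrow, with the lowest A1 culture at 59.89 CPM and the highest A0 culture at 59.73 CPM. Scaled per library, the first libraries of A0 cultures 1 and 2 held 61.49 and 62.4 CPM and their RLT libraries 48.05 and 55.71 CPM. Those first libraries lay above A1 cultures 1 and 3, at 60.03 and 59.85 CPM.

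Xpa (gene ID 100689196), which verifies the lesion and holds the repair complex together, passed no comparison. It was at 16.7, 16.98, 17.7 and 17.5 CPM in exponential A0, at 15.4, 16.9 and 16.2 CPM in A1 and at 15.5, 12.7 and 15.7 CPM in CHO-S. A0 stood above CHO-S in every culture, at log2 0.24 ± 0.111 (adjusted p = 0.0898). In stationary phase the highest values were 23.8 CPM in A0 culture 1 and 23.7 CPM in CHO-S culture 1, and the other 8 cultures ranged from 13.6 to 19.6 CPM. Without that CHO-S culture A0 was higher by 0.42 ± 0.162 (adjusted p = 0.0443).

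Ercc1 (gene ID 100689377), the partner of the ERCC4 nuclease, showed the widest gap between lines among the 9 genes. In exponential phase it was at 12.7, 10.9, 8.32 and 12.1 CPM in A0, at 12.4, 8.28 and 13.2 CPM in A1 and at 35.6, 30.4 and 34.8 CPM in CHO-S. The producer lines overlapped each other, and both lay far below CHO-S. A0 had 0.330 times the CHO-S level (log2 -1.60 ± 0.135, adjusted p = 2.11e-07) and A1 had 0.336 times (log2 -1.57 ± 0.116, adjusted p = 3.61e-11). Among 10588 expressed genes, 2.88% and 2.97% were as low or lower relative to CHO-S.

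The gap in Ercc1 was also present in stationary phase. A0 was at 12.3, 12.9, 9.67 and 9.44 CPM, A1 at 7.68, 10.1 and 10.3 CPM, and CHO-S at 13.4, 40.7 and 39.3 CPM. CHO-S culture 1 alone came close to the producer lines. The differences from CHO-S were log2 -1.65 ± 0.265 in A0 (adjusted p = 0.00069) and -1.90 ± 0.290 in A1 (adjusted p = 0.00153). Without culture 1 they were -1.84 (adjusted p = 4.39e-07) and -2.09 (adjusted p = 2.62e-28). Over all settings of the 4 comparisons with CHO-S every value was called. Between phases the change was log2 -0.01 in A0 and -0.22 in A1, with adjusted p of 0.991 and 0.297, and in CHO-S it was 0.05 (adjusted p = 0.932), or 0.26 (adjusted p = 0.00434) without culture 1.

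Ercc1 overlaps Polr1g, named Cd3eap in the table, in RefSeq, and reads of the pair may likewise not be fully separated. Cd3eap went the opposite way between lines in exponential phase, at log2 0.40 ± 0.104 in A0 against CHO-S (adjusted p = 0.00491) and 0.49 ± 0.063 in A1 (adjusted p = 4.76e-07). Neighbouring genes were looked at after the Ercc1 values had been seen. On the side of Cd3eap, Ercc2 was not called against CHO-S in exponential phase and Ppp1r13l gave log2 0.01 in A0 (adjusted p = 0.988). On the other side Fosb was lower in A0 by -1.46 ± 0.240 (adjusted p = 0.000134), from 2.64 CPM in CHO-S to 0.949 CPM. Rtn2, the gene after Fosb, was lower by -0.52 ± 0.116 (adjusted p = 0.0016). Ppm1n, the next, went the other way at very low levels, 0.505 CPM in A0 against 0.0506 CPM in CHO-S (adjusted p = 0.00212).

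Ercc4 (gene ID 100689044), the XPF nuclease that works with ERCC1, went the other way between lines. In exponential phase it was at 12.6, 12.7, 13.8 and 12.99 CPM in A0, at 11.5, 12.97 and 14.1 CPM in A1 and at 8.29, 8.86 and 10.4 CPM in CHO-S, with both producer lines above CHO-S. A0 was 1.43-fold higher (log2 0.52 ± 0.122, adjusted p = 0.00265) and A1 1.40-fold higher (log2 0.48 ± 0.121, adjusted p = 0.00149). In stationary phase A0 was at 17.1, 13.95, 16.7 and 16.3 CPM, A1 at 18.1, 15.5 and 13.7 CPM and CHO-S at 13.4, 10.6 and 11.8 CPM. A0 was higher than CHO-S by 0.47 ± 0.162 (adjusted p = 0.0416), a call lost in 9 of 15 settings with adjusted p up to 0.308. A1 stood at 0.44 ± 0.164 (adjusted p = 0.0671). Without CHO-S culture 1 the values were 0.54 (adjusted p = 0.00618) and 0.46 (adjusted p = 0.00404). With phase Ercc4 gave log2 0.29, 0.29 and 0.29 in A0, A1 and CHO-S, with adjusted p of 0.0614, 0.0668 and 0.223.

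**Figure D3:**
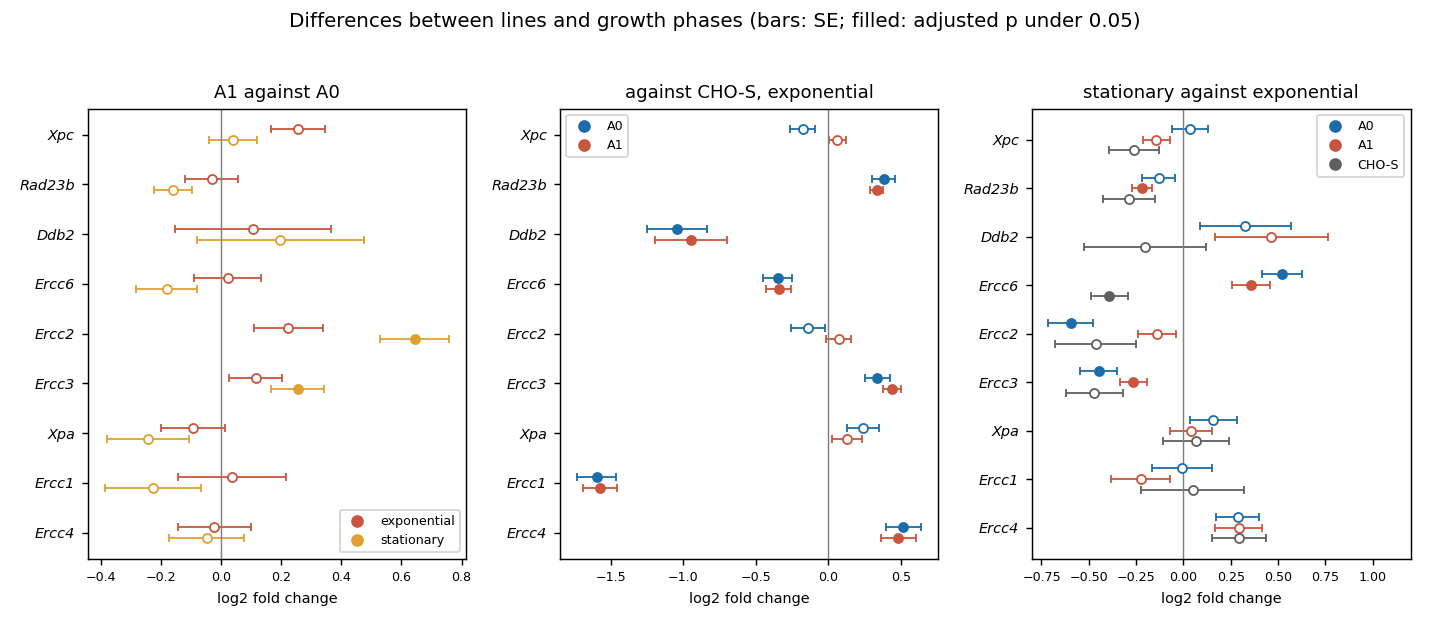
Log2 fold changes of the 9 genes with their SE (bars; filled points, adjusted p under 0.05), for A1 against A0 in each phase, for A0 and A1 against CHO-S in exponential phase, and for stationary against exponential phase in each line. Ercc1 lies near -1.6 in both lines against CHO-S, and Ercc6 lies above 0 with phase in A0 and A1 and at -0.39 in CHO-S.

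Ercc5, the nuclease that cuts on the other side of the lesion, has no row under its symbol. RefSeq gives it the gene ID 100764306, which the table lists as Bivm, so this row may hold reads of Ercc5, of Bivm or of both, and it was kept outside the 9 genes. The row was at 85.4, 84.2, 88.8 and 84.8 CPM in exponential A0, at 69.7, 68.1 and 70.7 CPM in A1 and at 92.8, 94.3 and 91.3 CPM in CHO-S. A1 lay below both other lines with no overlap. It was lower than A0 by log2 -0.30 ± 0.083 (adjusted p = 0.0136) and lower than CHO-S by -0.42 ± 0.052 (adjusted p = 2.33e-07). In stationary phase A1 remained lower than A0, at log2 -0.27 ± 0.086 (adjusted p = 0.0248), with 84.2, 80.4 and 79.9 CPM against 100, 82.7, 102 and 105 CPM. In A1 the row rose with phase by 0.24 ± 0.064 (adjusted p = 0.00294). In CHO-S it gave -0.13 ± 0.181 (adjusted p = 0.701), and -0.31 ± 0.058 (adjusted p = 2.6e-06) without culture 1. The interactions with CHO-S were 0.31 for A0 and 0.40 for A1 (adjusted p = 0.328 and 0.215). Without culture 1 they were 0.52 and 0.53 (adjusted p = 0.00615 and 1.99e-06), where 17.2% and 25.4% of all genes were called.

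The other genes of the pathway were read in 5 lists of 41 genes, of which 40 have a row (Gtf2h2 has none). RPA and the gap filling genes were mostly lower in stationary phase. RPA, which coats single-stranded DNA, was lower in stationary phase for 3 of 3 subunits in A0, A1 and CHO-S alike, with median log2 changes of -0.91, -0.51 and -0.69. Of all genes, 20.1%, 17.8% and 6.48% were lower in the 3 lines, and 24.7% in CHO-S without culture 1, where RPA again had 3 of 3 lower. Gap filling and ligation genes were lower for 13 of 18 in A0, 12 of 18 in A1 and 10 of 18 in CHO-S, with medians of -0.89, -0.36 and -0.75, while the median over all genes lay between 0.00 and 0.03. Without CHO-S culture 1 the CHO-S count was 15 of 18 with a median of -0.68. The DNA clamp Pcna fell from 402 ± 93.0 to 98.1 ± 13.6 CPM in A0 (SD, n = 4, log2 -2.05 ± 0.150 SE, edgeR adjusted p = 4.47e-08). In A1 it fell from 315 ± 5.83 to 146 ± 7.44 CPM (SD, n = 3, log2 -1.09 ± 0.057 SE, edgeR adjusted p = 2.3e-15). Pold4, a small subunit of DNA polymerase delta, was the 1 gene of the list that rose in each line, by log2 0.74, 0.54 and 1.19, the last with CHO-S culture 1 included.

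A list of 13 proliferation genes, chiefly replicative helicase subunits and mitotic regulators, moved along with these. It was lower with phase for 12 of 13 genes in A0, 12 in A1 and 9 in CHO-S (13 without culture 1), with medians of -1.32, -0.69 and -1.01. The shares of all genes lower were 20.1%, 17.8% and 6.48%, and 24.7% in CHO-S without culture 1. Its summed level ran from 5733 to 6316 CPM in exponential A0 and from 1818 to 3044 CPM in stationary A0. In A1 it ran from 5028 to 5199 CPM and from 3289 to 3481 CPM, and in CHO-S from 5096 to 5156 CPM and from 2686 to 3299 CPM. The part of cell division in the fall of the repair genes was not tested.

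The 9 genes had a median phase change of 0.03 in A0, -0.14 in A1 and -0.26 in CHO-S. Among 7 other genome-wide recognition genes, 5 were lower in A0, 3 in A1 and 0 in CHO-S, with 0 higher in each, and without CHO-S culture 1 there were 4 lower. Their medians were -0.27, -0.18 and -0.11. Of the 5 other transcription-coupled genes 2 were higher and 2 lower in A0, and 0 were called in A1 and in CHO-S, the last becoming 1 lower without culture 1. Ercc8, which acts with ERCC6, rose in A0 by log2 0.52 ± 0.112 (adjusted p = 0.00146). Of 7 other TFIIH subunits 3 were lower in A0, 4 in A1 and 1 in CHO-S, the last becoming 3 lower and 1 higher without culture 1. These counts stand beside 20.1%, 17.8% and 6.48% of all genes lower, or 24.7% in CHO-S without culture 1. Of all genes tested, 3578 of 20267 were higher in A0, 2895 of 18548 in A1 and 1182 of 17367 in CHO-S. Without culture 1 the CHO-S count was 3995 of 17319. The difference between steps was not tested. The small subunit Gtf2h5 rose in A0 by 0.36 ± 0.131 (adjusted p = 0.0403).

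**Figure D4:**
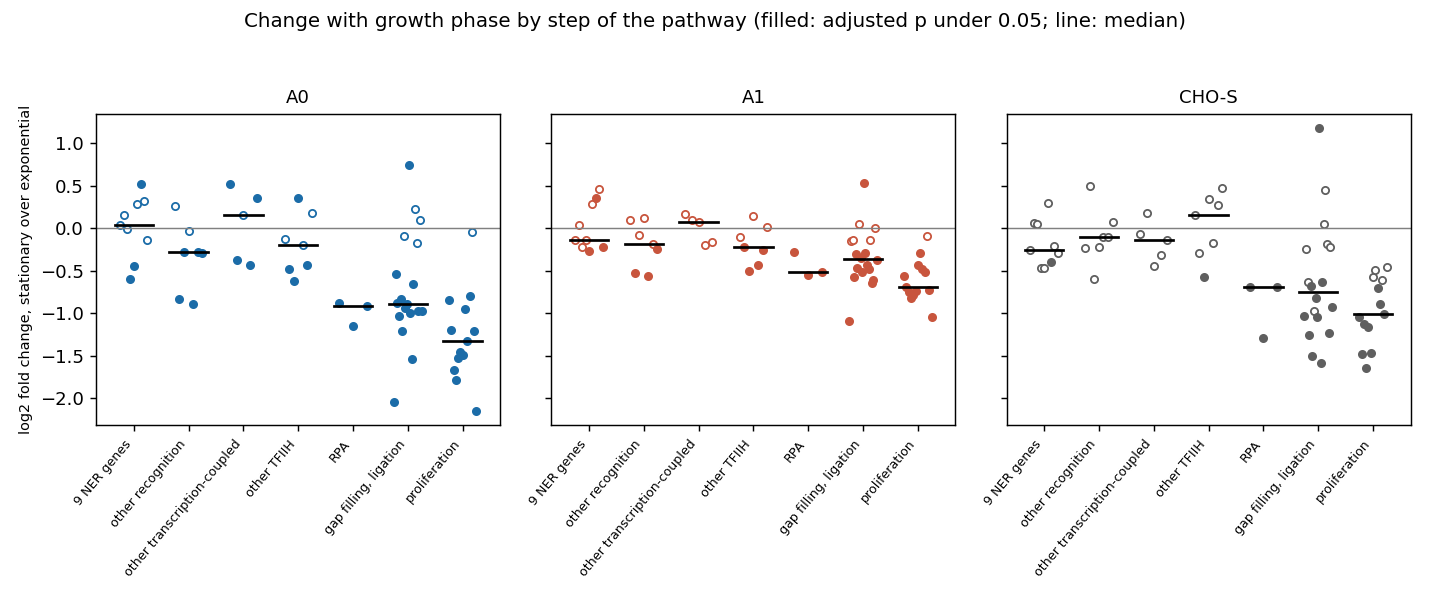
Log2 fold change from exponential to stationary phase of each gene, by step of the pathway, in A0, A1 and CHO-S (filled points, adjusted p under 0.05; line, median of the list), with the proliferation list at the right. RPA and the gap filling genes lie mostly below 0 in each line, with A0 medians of -0.91 and -0.89, while the 9 repair genes have an A0 median of 0.03.

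Between A1 and A0 in stationary phase, all 3 RPA subunits were higher in A1 (median log2 0.61), as were 8 of 18 gap filling genes, with 1 lower (median 0.26). Of all genes, 16% were higher and 17.7% lower. The polymerase epsilon subunit Pole2 was higher by 0.73 ± 0.141 (adjusted p = 0.00108) and Rpa3 by 0.68 ± 0.124 (adjusted p = 0.000698). The proliferation list was higher for 7 of 13 genes, and its part was not tested. The interaction of line and phase was called for 8 of 18 gap filling genes, 2 of 3 RPA subunits and 7 of 13 proliferation genes, all with a less negative phase change in A1, and with 5.04% of all genes called in that direction. DNA ligase Lig3, which seals nicks, was higher in A1 in both phases, by 0.89 ± 0.093 in exponential (adjusted p = 7.96e-06) and 0.76 ± 0.073 in stationary phase (adjusted p = 3.11e-06). Of the 7 other TFIIH subunits, Gtf2h1, Gtf2h3 and Gtf2h5 were lower in stationary A1, by log2 -0.33, -0.33 and -0.40 (adjusted p = 0.0113, 0.0122 and 0.00389). Ccnh, the cyclin of its kinase module, was higher by 0.33 (adjusted p = 0.0102), as Ercc2 and Ercc3 were.

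In exponential phase 5 of the 40 genes were higher and 8 lower in A1 than in A0, where 12% and 13.8% of all genes were. Lig3, Pold1 (log2 0.51, adjusted p = 0.000542) and Stk19 (0.42, adjusted p = 0.0143) rose most. Rfc1 (-0.62, adjusted p = 0.000112), Gtf2h3 (-0.54, adjusted p = 0.00126) and the ubiquitin ligase scaffold Cul4a (-0.41, adjusted p = 0.00343) fell most. A list of 13 p53 response genes, read because Ddb2 and Xpc are p53 targets in human cells, had 7 higher and 0 lower in exponential A1. In stationary phase it had 3 higher and 4 lower, beside 16% and 17.7% of all genes. Its interaction was negative and called for 8 of 13 genes (3.9% of all genes called in that direction), while Ddb2 gave an interaction of 0.09 ± 0.368 (adjusted p = 0.977) and Xpc -0.22 ± 0.121 (adjusted p = 0.318).

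Against CHO-S in exponential phase, 12 of the 40 genes were higher and 12 lower in A0, and 14 higher and 16 lower in A1, with CHO-S cultures shared. That is 30% and 30% in A0 and 35% and 40% in A1, where 27.6% and 21.9% of all genes were higher and lower in A0 and 30% and 27.1% in A1. With the stricter filter, 65.2% of genes in A0 and 74.2% in A1 were called in either direction. No excess is therefore read from these shares. The replicative ligase Lig1 was at 111 ± 3.82 CPM in A0 (SD, n = 4), 104 ± 3.74 CPM in A1 and 215 ± 0.589 CPM in CHO-S (SD, n = 3 each). Its differences were log2 -0.94 (edgeR adjusted p = 1.3e-07) and -1.05 (edgeR adjusted p = 2.87e-15). The translesion polymerase Polk was lower by -0.85 and -0.70 (adjusted p = 2.49e-05 and 2.53e-07). Rpa1 was higher by 0.66 in both lines (adjusted p = 8.76e-06 and 2.24e-11). Ddb1, the adaptor that carries DDB2 in its ubiquitin ligase, was higher in A1 by 0.63 ± 0.041 (adjusted p = 3.73e-12), at 910 against 588 CPM. In stationary phase 6 were higher and 9 lower in A0, and 10 higher and 7 lower in A1, counts that include CHO-S culture 1. Of all genes, 20.7% were higher and 19.3% lower in A0, and 18.2% higher and 16.6% lower in A1. Without that culture the counts were 10 higher and 9 lower in A0, beside 28% and 23.8% of all genes, and 15 higher and 13 lower in A1, beside 29.9% and 27.5%.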

How the data were processed

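The deposited file holds raw counts of reads per gene, which the authors made from stranded mRNA libraries; the submitters' processing notes name STAR 2.5.4b and HTSeq 0.7.2, the study's methods name C_griseus_v1.0 as the genome, and the strand setting is not given in the sources used here. Gene symbols are those of the table; overlaps, neighbours and the Ercc5 entry come from RefSeq gene records, whose coordinates are not printed. Libraries held 1038026 to 14652646 counts in genes, and 5 summary lines (0.357 to 0.403% ambiguous, 2.31 to 11.5% not aligned, 11.9 to 32.8% outside genes, 12.7 to 14.8% not unique) were left out of totals and tests. A limit for 0 reads is 3 counts over that library's total, which covers counting error only.

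Second A0 exponential libraries were summed with the first of the same culture number, giving 20 cultures. Each comparison was fitted on its own groups with edgeR 4.0.16 in R 4.3.3 (TMM, quasi-likelihood, two-sided), keeping those genes counted at least once (minimum 1) in 2 or more of the fitted cultures, with Benjamini-Hochberg adjustment over all of them and a threshold of 0.05. The SE of a log2 value is its size over the root of the F statistic. No source says that cultures are separate thaws, so p-values measure the spread between cultures. The code was tested on simulated counts. Alternatives were DESeq2 1.42.0, its size factors in edgeR, stricter and no filters, a replicate block, 1 fit of all 6 groups, each culture left out, other A0 library choices and A0 culture pairs; omission of the RLT libraries and the interactions with CHO-S were added after the data were seen.

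Between the A0 phases, deviations from group means of same-numbered cultures correlated at 0.19 to 0.424 in 4 of 4 pairs. No other comparison met the mark of over 0.1 in every pair. Differently numbered cultures were not correlated, so whether a number marks 1 flask was not tested. A0 cultures 1 and 2 also stood apart from 3 and 4 in unaligned reads. These were 8.91 and 9.41% against 6.43 and 6.97% in stationary phase. In exponential phase they were 4.22 to 4.85% against 3.13 to 3.39%. The members and lists were chosen with earlier results of these data known. Named were the 9 genes, the up to 3 largest rises and falls among called genes of 5 repair lists in each comparison (not all are printed) and the 3 genes nearest to Xpc with at least 5 CPM on average, 1 of which is not reported here. The neighbours of Ercc1, the overlapping genes and the Bivm row were chosen after values were seen.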

Additional observations from a re-analysis of the deposited data

Results flagged for a closer look

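Ercc6 changed with growth phase in opposite directions in the producer lines and in CHO-S. The difference between the phase changes was log2 0.89 for A0 against CHO-S and 0.74 for A1 against CHO-S, both past the threshold in an interaction test that was added after the values were seen. All stationary cultures lay above all exponential ones in A0 and A1, and all lay below them in CHO-S. The A0 difference passed in all 23 settings, between 0.84 and 0.98, and the A1 difference in 16 of 17, between 0.68 and 0.81.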

How the results depend on the processing

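Counts of the 9 genes called moved as follows. For A1 against A0 in exponential phase the count of 0 became 0 to 1 with 1 culture left out, 1 with DESeq2, DESeq2 size factors, the stricter filter, the replicate block, 1 fit of all groups and first A0 libraries, 2 with A0 cultures 1 and 2. For A1 against A0 in stationary phase the count of 2 became 1 to 2 with 1 culture left out, 1 with 1 fit of all groups and A0 cultures 3 and 4, 5 with A0 cultures 1 and 2. For A0 against CHO-S in stationary phase the count of 4 became 2 to 7 with 1 culture left out, 1 with the replicate block and A0 cultures 1 and 2, 2 with A0 cultures 3 and 4. For A1 against CHO-S in stationary phase the count of 2 became 1 to 5 with 1 culture left out, 1 with the replicate block, 5 with 1 fit of all groups. For A1 with phase the count of 3 became 0 with 1 fit of all groups. For CHO-S with phase the count of 1 became 0 to 6 with 1 culture left out, 0 with no filter and the replicate block, 2 with 1 fit of all groups. For the interaction of A1 and A0 with phase the count of 0 became 1 with A0 cultures 1 and 2. In A0 and A1 against CHO-S in exponential phase and in A0 with phase no count moved by over 1.5 times. Without CHO-S stationary culture 1 the counts are those given in the report. Same-numbered cultures correlated in every pair only between the A0 phases, where the blocked fit changed no count by that much. Elsewhere samples share only a number. Log2 values that changed sign were uncalled in both fits wherever they did so, and their values or ranges were these. For A1 against A0 in exponential phase, Ercc1 gave -0.094 to 0.21 with 1 culture left out, -0.069 with A0 cultures 1 and 2. Ercc4 gave -0.097 to 0.052 with 1 culture left out, 0.013 with A0 cultures 1 and 2. Ercc6 gave -0.031 to 0.087 with 1 culture left out, -0.0070 with no RLT libraries, -0.018 with A0 cultures 3 and 4. Ddb2 gave -0.027 to 0.23 with 1 culture left out. Rad23b gave -0.077 to 0.015 with 1 culture left out. For A1 against A0 in stationary phase, Xpc gave -0.024 with A0 cultures 1 and 2. Ercc4 gave -0.14 to 0.040 with 1 culture left out. For A0 against CHO-S in stationary phase, Ercc2 gave -0.37 to 0.057 with 1 culture left out. Ddb2 gave -0.58 to 0.17 with 1 culture left out. For A1 against CHO-S in stationary phase, Xpa gave -0.15 to 0.14 with 1 culture left out, -0.025 with the replicate block. Ddb2 gave -0.48 to 0.28 with 1 culture left out. For A0 with phase, Xpc gave -0.0033 to 0.072 with 1 culture left out, -0.056 with first A0 libraries, -0.065 with no RLT libraries, -0.082 with A0 cultures 3 and 4. Xpa gave -0.042 with A0 cultures 3 and 4. Ercc1 gave -0.12 to 0.074 with 1 culture left out, 0.021 with DESeq2 and DESeq2 size factors, 0.032 with the stricter filter, 0.0021 with 1 fit of all groups, 0.096 with first A0 libraries, 0.11 with no RLT libraries, 0.079 with A0 cultures 1 and 2. For A1 with phase, Xpa gave -0.013 to 0.12 with 1 culture left out. For CHO-S with phase, Xpa gave -0.0025 to 0.25 with 1 culture left out. Ercc1 gave -0.14 to 0.26 with 1 culture left out, -0.013 with DESeq2, -0.092 with the replicate block. For the interaction of A1 and A0 with phase, Xpa gave 0.068 with A0 cultures 3 and 4. Ercc4 gave -0.12 to 0.066 with 1 culture left out, 0.0071 with no filter, 0.0010 with no RLT libraries. Ddb2 gave -0.10 to 0.23 with 1 culture left out. Of 1426 refits of single genes 1280 kept direction and call, 43 lost a call, 47 gained one and 56 changed sign. The cause of these changes was not tested. Depth limits Ddb2 throughout and every gene in CHO-S stationary culture 1.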
